A study of Saccharomyces cerevisiae with 9 samples.

Results

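The 48 genes described here encode proteins of the small subunit processome of budding yeast, the particle that makes the first pre-40S ribosome. They were chosen by function from a written list: UTP genes, core proteins of box C/D snoRNPs, the nucleolin-like gene NSR1 and other factors of 18S rRNA processing. The rule used no measured value, but earlier results of these data were known when the genes were chosen. The table of the series held 6942 genes and non-coding features, 6129 of them had a value on all 9 arrays, and all 48 processome genes were among these. Each array compared cDNA of a culture grown in YPD at 30°C and held in 0.7 M NaCl for 30 min with cDNA of the same strain before stress (time 0). Wild type (WT) was BY4741, a haploid laboratory strain, with 7 arrays. The mutant, ckb12, with 2 arrays, is BY4741 without CKB1 and CKB2, which encode the regulatory subunits of protein kinase CK2, so that any CK2 activity in it rests on the catalytic subunits Cka1 and Cka2. The study's methods do not say how many isolates of ckb12 were used.

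The set letters A and B each join 1 WT array (replicates 8 and 9) with 1 ckb12 array (replicates 1 and 2). The letters C, D and E belong to WT replicates 10, 11 and 12, while WT replicates 1 and 2 have no letter. For WT replicate 12 the title and genotype name WT, but 1 label field also says mutant, and the array was treated as WT. The methods call replicates biological, but the labels do not say that each array came from its own culture, so the p-values measure the spread between arrays, which may in part be technical. Arrays held 6205 to 6812 values. The SD across features was 1.22 to 1.27 on WT arrays, apart from 1.38 on WT replicate 12, and 1.32 and 1.34 in ckb12. Both ckb12 arrays were thus wider than every WT array but replicate 12. The number of arrays limits the precision, and no spot intensities were used.

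The processome assembles on the nascent pre-rRNA in the nucleolus. The U3 snoRNA, bound by box C/D proteins, pairs with the 5' external spacer and with 18S sequences, and the particle brings about the early cleavages that release the 18S precursor. Its proteins arrive in part as preformed modules: UtpA, which binds the 5' spacer first, UtpB, UtpC and the Mpp10 complex. UTP22 and RRP7 encode the UtpC proteins that join with CK2, the kinase whose regulatory subunits ckb12 lacks. In growing yeast these genes belong to the ribosome biogenesis genes, which as a class are known to be repressed in stress.

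After 30 min in salt, transcripts of all 48 genes fell in WT. Each value is the log2 of treated signal over unstressed signal, so that -1 stands for a transcript at 1 part in 2 of its level before stress, relative to the typical feature of the array. The median of the 48 WT means was -2.49, a 5.63-fold lower level, against -0.04 over all 6129 features. Every gene passed the test (limma, mean of 7 WT arrays against 0, Benjamini-Hochberg adjusted p below 0.05), and 40.6% of all features were likewise called lower. With a fall of at least 1 on the log2 scale as well, 46 of 48 were called, against 16.2% of all features. All 48 ratios were below 0 on all 7 WT arrays, which held for 36.5% of features, and also on both ckb12 arrays. Of the 48 genes, 37 lay in the lowest 5% of WT means (307 features) and 18 among the 100 lowest. In whole cultures, a fall in a transcript and a smaller share of cells that make it cannot be told apart.

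**Figure D1:**
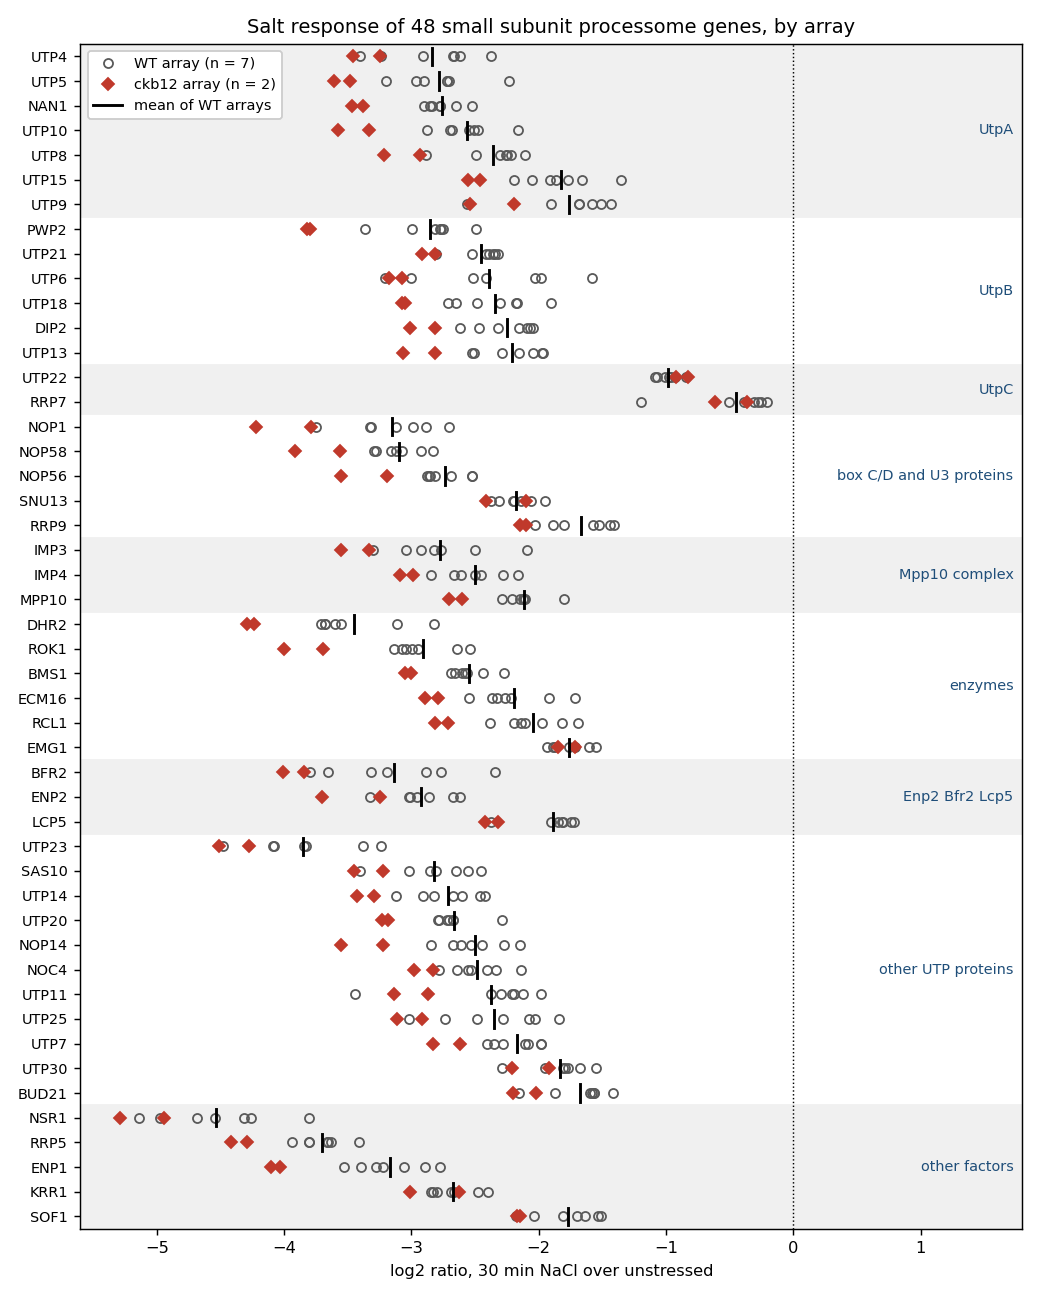
Log2 ratio of 30 min NaCl over unstressed (x axis) for each of the 48 genes (y axis, grouped by complex or role), with 1 open circle per WT array (n = 7), 1 red diamond per ckb12 array (n = 2) and a black bar at the WT mean. All values lie below 0, UTP22 and RRP7 lie to the right of the other genes, and in most rows both diamonds lie to the left of the WT circles.

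The UtpA genes, whose proteins recruit the other modules to the 5' spacer, had WT means between -2.84 and -1.76. They were UTP4 (YDR324C) at -2.84, UTP5 (YDR398W) at -2.78, NAN1 (YPL126W) at -2.76, UTP10 (YJL109C) at -2.56, UTP8 (YGR128C) at -2.36, UTP15 (YMR093W) at -1.83 and UTP9 (YHR196W) at -1.76. The UtpB genes, whose proteins bind the 5' spacer together with U3, had WT means of -2.85 for PWP2 (YCR057C), -2.45 for UTP21 (YLR409C), -2.39 for UTP6 (YDR449C), -2.34 for UTP18 (YJL069C), -2.25 for DIP2 (YLR129W) and -2.21 for UTP13 (YLR222C). The medians of these large modules were therefore close, at -2.56 over 7 UtpA genes and -2.37 over 6 UtpB genes. UTP6 varied most between WT arrays of all 48 genes, from -3.21 to -1.59 (SD 0.58, n = 7).

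Of the snoRNP proteins, the methyltransferase NOP1 (fibrillarin, YDL014W) had a WT mean of -3.15, and the paired scaffold proteins NOP58 (YOR310C) and NOP56 (YLR197W) had -3.10 and -2.74. The kink-turn binding protein SNU13 (YEL026W), which is also part of the spliceosome, had -2.18, and RRP9 (YPR137W), which is specific to U3 among the box C/D RNAs, had -1.67. In the Mpp10 complex, which steadies U3 on the pre-rRNA, IMP3 (YHR148W) stood at -2.78, IMP4 (YNL075W) at -2.50 and MPP10 (YJR002W) at -2.11. The RNA they act with gave much smaller ratios: U3 is encoded by near-identical copies that a hybridisation cannot keep apart, and snR17a had a WT mean of -0.31 (SD 0.37, adjusted p = 0.0375, limma) and snR17b -0.27 (SD 0.43, adjusted p = 0.101, limma). On the ckb12 arrays the values for snR17a were 0.32 and -1.20, on either side of 0.

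Among the enzymes, the RNA helicase DHR2 (YKL078W) had the lowest WT mean, -3.45, followed by the DEAD-box helicase ROK1 (YGL171W) at -2.91 and the GTPase BMS1 (YPL217C) at -2.54. The helicase ECM16 (YMR128W, also known as DHR1), which takes U3 off the 18S sequence, had -2.19, RCL1 (YOL010W), the partner of Bms1, had -2.04, and EMG1 (YLR186W), a methyltransferase of an 18S pseudouridine, had -1.76. The proteins that travel together as Enp2, Bfr2 and Lcp5 had WT means of -2.92 (ENP2, YGR145W), -3.14 (BFR2, YDR299W) and -1.89 (LCP5, YER127W). Thus within a single enzyme class and within a trio of partner proteins the WT means spread over more than 1 log2 unit.

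The other UTP proteins had WT means of -3.85 for UTP23 (YOR004W), -2.82 for SAS10 (YDL153C), -2.71 for UTP14 (YML093W), -2.66 for UTP20 (YBL004W), -2.50 for NOP14 (YDL148C), -2.48 for NOC4 (YPR144C), -2.37 for UTP11 (YKL099C), -2.35 for UTP25 (YIL091C), -2.17 for UTP7 (YER082C), -1.84 for UTP30 (YKR060W) and -1.68 for BUD21 (YOR078W). Utp14 activates Dhr1, and Noc4 is the partner of Nop14. The other factors were NSR1 (YGR159C) at -4.53, RRP5 (YMR229C) at -3.70, ENP1 (YBR247C) at -3.16, the KH-domain protein KRR1 (YCL059C) at -2.67 and SOF1 (YLL011W) at -1.77. In all, 38 of 48 genes had a WT mean below -2, 8 of these below -3, and 8 lay between -2 and -1. The SD over the 7 WT arrays had a median of 0.24 over the 48 genes, close to that over all features (0.23).

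NSR1, whose product resembles nucleolin and takes part in early pre-rRNA cleavage, had the most negative WT mean of all 6129 features. Its ratios on WT replicates 1, 2, 8, 9, 10, 11 and 12 were -3.80, -4.68, -4.26, -4.31, -5.14, -4.54 and -4.98, and on the ckb12 arrays -4.94 and -5.29. It was the lowest of the 48 genes on each of the 9 arrays, and the groups overlapped. The WT mean was -4.53 (SD 0.46, n = 7), a 23.1-fold lower level, and the strain difference was -0.58 (SE 0.30), with a 95% interval from -1.24 to 0.08.

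The next lowest genes were UTP23, RRP5, DHR2 and ENP1. UTP23, a PIN-domain protein that acts in the release of the snR30 snoRNA, ranged in WT from -4.48 through a median of -3.84 to -3.24 and had -4.51 and -4.27 in ckb12. RRP5, an RNA-binding protein needed for both subunits, ranged in WT from -3.94 (median -3.67) to -3.41 and had -4.42 and -4.29 in ckb12. DHR2 ranged in WT from -3.71 (median -3.60) to -2.83 and had -4.23 and -4.29 in ckb12. The strains overlapped for UTP23 and did not for RRP5 and DHR2.

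At the other end, UTP22 (YGR090W) and RRP7 (YCL031C), the UtpC genes, were the least lowered of the 48 on all 9 arrays. UTP22 had -1.07, -0.96, -0.93, -1.01, -1.08, -0.97 and -0.84 on WT replicates 1, 2, 8, 9, 10, 11 and 12 and -0.92 and -0.83 in ckb12. RRP7 had -0.31, -0.39, -0.50, -0.25, -0.28, -0.21 and -1.20 on the same WT arrays and -0.62 and -0.37 in ckb12. The third highest gene of an array, which was UTP15, RRP9, EMG1 or BUD21, lay between -1.91 and -1.35. A gap thus separated the UtpC pair from the rest of the 48 on every array. On WT replicates 1, 2, 9, 10 and 11, however, UTP22 lay nearer to the third highest gene than to RRP7. Such a weak fall was not particular to this pair among ribosome assembly genes. Outside the 48, the early 40S factor gene FCF1 had a WT mean of -0.94 and the 60S factor gene TIF6 -0.90. The early 40S factor genes SGD1 (-1.22) and RRP3 (-1.36) lay within the gap. The medians of these lists were lower, at -2.30 and -2.86. UTP22 had a WT mean of -0.98 (SD 0.08, n = 7, adjusted p = 9.8e-08, limma), a 1.97-fold lower level, and 16.5% of all features had a lower WT mean. It also had the smallest SD of the 48 genes. RRP7 had a WT mean of -0.45 (SD 0.34, n = 7, adjusted p = 0.00469, limma), a 1.36-fold lower level, with 31.7% of features lower. Its mean without WT replicate 12, the low array, was -0.32, and the gene still passed the test.

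RRP36 (YOR287C), another protein of the UtpC module, is not among the 48 genes, and its WT mean was -2.20 (SD 0.42, n = 7). The low response of UTP22 and RRP7 was therefore not seen in every UtpC gene. UTP22, RRP7 and CK2 also occur together with the ribosomal protein gene regulator Ifh1 in the CURI complex, where Ifh1 works with the DNA-binding protein Fhl1. IFH1 (YLR223C) had a WT mean of -1.24 (SD 0.23) and FHL1 (YPR104C) of -0.72 (SD 0.16), n = 7 each, and both passed the test. RRP36, IFH1 and FHL1 were looked up after the values of UTP22 and RRP7 had been seen. The catalytic CK2 subunits gave WT means of -0.01 for CKA1 (YIL035C) and -0.62 for CKA2 (YOR061W), and only CKA2 passed the test. The regulatory subunit genes had WT means of -0.60 (CKB1) and -0.18 (CKB2), and only CKB1 passed.

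The genes just below the UtpC gap were RRP9, BUD21 and EMG1. RRP9 ranged in WT from -2.03 (median -1.57) to -1.41 and had -2.14 and -2.10 in ckb12. BUD21 ranged in WT from -2.15 (median -1.58) to -1.42 and had -2.20 and -2.02 in ckb12. EMG1 ranged in WT from -1.94 (median -1.76) to -1.55 and had -1.71 and -1.85 in ckb12. Only RRP9 had both ckb12 values below all WT values, and both EMG1 values of ckb12 fell inside its WT range.

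In ckb12 the 48 genes also fell. The median of the ckb12 means was -3.05, against -0.09 over all features. In a model of all 9 arrays, 47 of 48 were called lower (35.7% of all features), all but RRP7 (mean -0.49, adjusted p = 0.0590, limma). With a fall of at least 1 on the log2 scale, 46 of 48 were called, against 19.2% of all features.

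**Figure D2:**
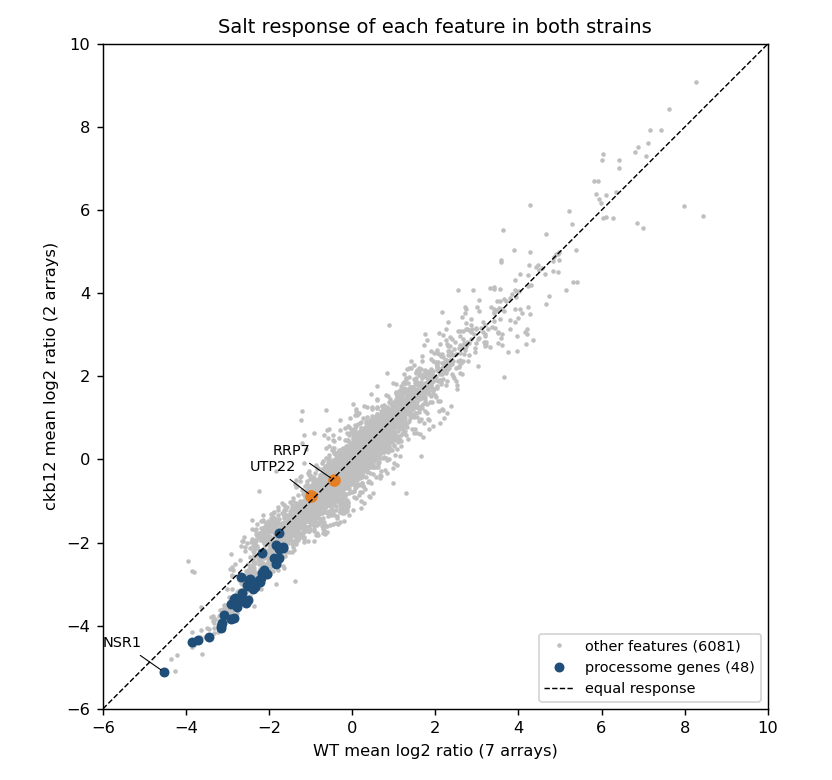
Mean log2 ratio of each of 6129 features in WT (x axis, 7 arrays) and in ckb12 (y axis, 2 arrays), with the 48 processome genes in blue and UTP22 and RRP7 in orange. The dashed line marks an equal response. The blue points lie at the lower left end, from NSR1 at -4.53 in WT upward, mostly below the line, while UTP22 and RRP7 lie next to it.

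The second comparison asked whether the response of these genes differed in the strain without the CK2 regulatory subunits. The ratios were more negative in ckb12 for 47 of 48 genes, as they were for 58.8% of all features. Lower in ckb12 stands here for a more negative ratio. Ratios within a strain do not tell a lower level after salt from a higher level before it. The median difference, ckb12 minus WT, was -0.64, a 1.55-fold lower ratio, against -0.06 over all features. After adjustment over all features, 4 of 48 genes were called lower in ckb12 (background 0.783%) and 0 were called higher (0.359%). At an unadjusted p below 0.05, 36 were lower (10.7% of features) and 0 were higher (4.6%). In 30 of 48 genes both ckb12 values lay below all 7 WT values, against 12% of features, and in 0 genes did both lie above (5.32%). The 48 genes share the same 9 arrays, so these counts do not come from independent measurements.

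**Figure D3:**
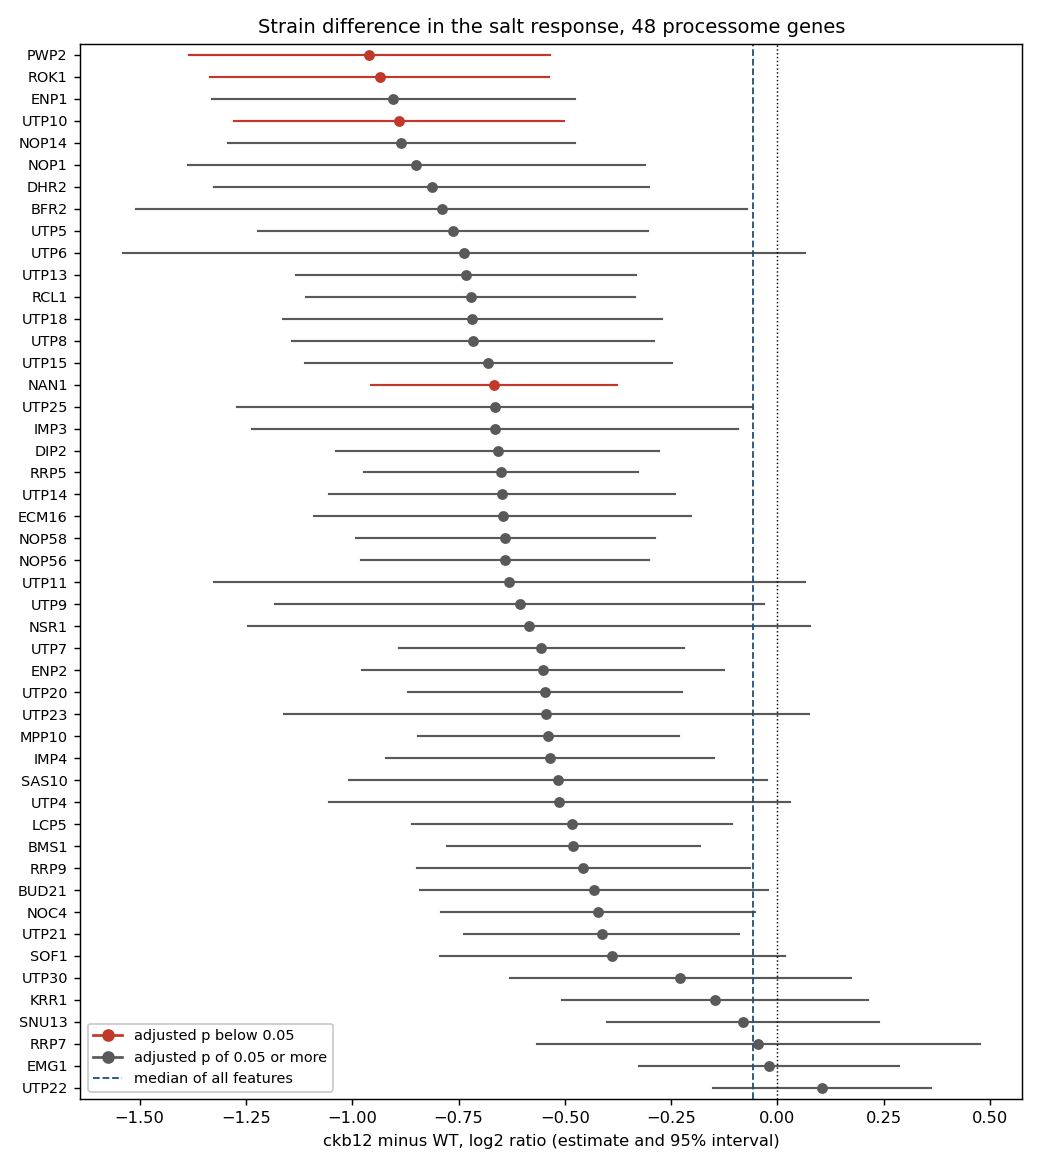
Strain difference, ckb12 minus WT, in the log2 ratio (x axis) with its 95% interval (limma, 9 arrays) for the 48 genes (y axis), sorted from the lowest. Red marks the 4 genes with an adjusted p below 0.05, and the dashed line is the median of all features (-0.06). The estimates run from -0.96 for PWP2 to 0.11 for UTP22.

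The called genes were ROK1, the UtpA genes NAN1 and UTP10, and PWP2 of UtpB. PWP2 ranged in WT from -3.36 (median -2.78) to -2.49 and had -3.82 and -3.80 in ckb12. ROK1 ranged in WT from -3.14 (median -2.99) to -2.54 and had -4.00 and -3.70 in ckb12. UTP10, a large HEAT-repeat protein, ranged in WT from -2.88 (median -2.55) to -2.16 and had -3.33 and -3.58 in ckb12. For each of these genes both ckb12 arrays lay below every WT array. The differences were -0.96 for PWP2 (SE 0.19, adjusted p = 0.0427, limma), -0.94 for ROK1 (SE 0.18, adjusted p = 0.0393, limma) and -0.89 for UTP10 (SE 0.18, adjusted p = 0.0403, limma). NAN1 varied less, from -2.90 (median -2.78) to -2.52 in WT with -3.38 and -3.47 in ckb12, and its difference was -0.67 (SE 0.13, adjusted p = 0.0403, limma). ENP1, which stays on pre-40S particles into the cytoplasm, ranged in WT from -3.53 (median -3.22) to -2.78 and had -4.03 and -4.10 in ckb12. NOP14 ranged in WT from -2.85 (median -2.53) to -2.15 and had -3.55 and -3.23 in ckb12. The strains did not overlap for ENP1 and NOP14 either, and their differences of -0.90 and -0.88 missed the threshold (adjusted p = 0.0549 and 0.0508, limma).

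These 4 calls lay near the threshold and depended on single arrays. Without WT replicate 12 the count was 14 (1.79% of all features), without WT replicate 10 it was 2 (0.767%) and without WT replicate 11 it was 1 (0.506%). Leaving out WT replicate 1, 2, 8 or 9 gave 0, with 0.408%, 0.669%, 0.245% and 0.538% of all features called lower. No count is given for fits that leave 1 ckb12 array. After quantile normalization between arrays the median difference was -0.28, with 42 of 48 genes negative and 0 called (0.359% of all features called lower).

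The differences were smallest for UTP22 at 0.11 (95% interval -0.15 to 0.36), EMG1 at -0.02 (-0.32 to 0.29), RRP7 at -0.04 (-0.56 to 0.48), SNU13 at -0.08 (-0.40 to 0.24), KRR1 at -0.15 (-0.51 to 0.21) and UTP30 at -0.23 (-0.63 to 0.17). After quantile normalization RRP7, EMG1, SNU13 and KRR1 had differences above 0, and so did UTP23. SNU13 ranged in WT from -2.37 (median -2.19) to -1.95 and had -2.42 and -2.10 in ckb12. KRR1 ranged in WT from -2.85 (median -2.69) to -2.39 and had -3.01 and -2.63 in ckb12. For both the strains overlapped. SNU13, KRR1 and UTP30 were singled out after their values were seen, since their differences were among the smallest.

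By module, the median strain difference was -0.73 over 6 UtpB genes, -0.68 over 7 UtpA genes, -0.68 over 6 enzymes, -0.64 over 5 box C/D and U3 proteins, -0.55 over the Enp2, Bfr2 and Lcp5 genes, -0.54 over the Mpp10 complex and 0.03 over the UtpC pair. The differences between modules were not tested. Leaving the UtpC pair out changed the medians little, to -2.50 in WT and -0.64 for the strain difference. Across the 48 genes, the WT mean and the strain difference had a Spearman's rho of 0.48, so that genes with lower WT means tended to have more negative differences. Both measures share the WT arrays, and the genes are not independent replicates.

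Other genes of the pathway were read the same way, with genes outside the 48. Over all features, 40.6% were called lower in WT, and 0.783% were called lower in ckb12 than in WT. All 24 other early 40S factors were called lower in WT, with a median of -2.30 and a median strain difference of -0.47. Of these, 1, the acetyltransferase gene KRE33 (difference -0.98), was called lower in ckb12. Of 11 late 40S factors 10 were called lower in WT, with a median of -2.50, all but the kinase gene HRR25 at 0.16. The median strain difference of the late factors was -0.39, with 0 called. At an unadjusted p below 0.05, 5 of 11 late and 11 of 24 other early 40S factors were lower in ckb12 (10.7% of all features). All 31 of the 60S factors were called lower in WT, with a median of -2.86 and a median strain difference of -0.60, and 0 of them were called in the strain comparison, although 24 were lower in ckb12 at an unadjusted p below 0.05 (10.7% of all features). The 56 small-subunit ribosomal protein (RPS) genes were all called lower in WT too, with a median of -2.10. Their median strain difference was 0.36, opposite in sign to that of the processome genes, and in 16 of 56 both ckb12 values lay above all WT values (5.32% of all features). In the strain comparison 1 RPS gene was called higher in ckb12 (0.359% of all features).

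**Figure D4:**
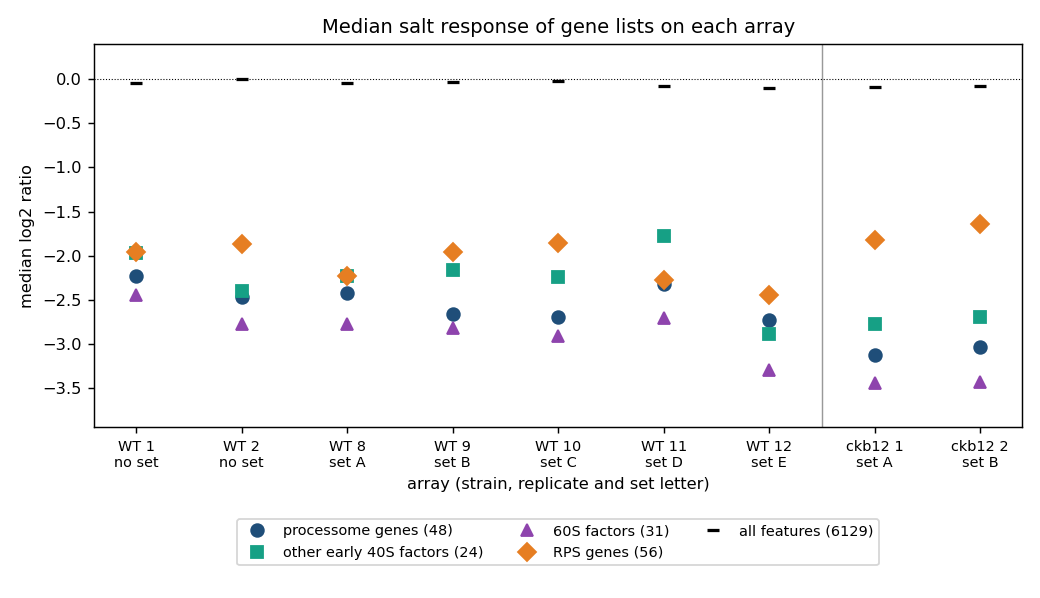
Median log2 ratio (y axis) on each of the 9 arrays (x axis, with strain, replicate and set letter) of the 48 processome genes, other early 40S factors, 60S factors, RPS genes and all features. The processome medians of the ckb12 arrays, -3.13 and -3.04, lie below all WT medians, while the RPS medians of ckb12, -1.83 and -1.64, lie above all of them.

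On single arrays, the median over the 48 genes was -2.23, -2.47, -2.43, -2.66, -2.69, -2.32 and -2.73 on WT replicates 1, 2, 8, 9, 10, 11 and 12, and -3.13 and -3.04 in ckb12. On WT replicate 1, 7 of 48 genes lay below their own WT mean (47.7% of all features), and on WT replicate 11 it was 11 (57.3%). On WT replicates 9 and 10 it was 38 each (53.4% and 47.7% of features). In ckb12 it was 46 and 44 genes (60.6% and 54.0% of features). The median absolute deviation over all features ran from 0.850 to 0.929 in WT, apart from 1.004 on WT replicate 12. It was 0.894 and 0.983 in ckb12. After the arrays were scaled to an equal deviation, the median strain difference was -0.50, with 0 of the 48 genes called (0.457% of all features called lower).

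Within the sets, the median of ckb12 minus WT over the 48 genes was -0.68 in set A and -0.46 in set B, against -0.05 over all features for the mean of both sets. In 45 of 48 genes ckb12 was lower in both sets, as in 39% of all features. With the set letter as a replicate block on the 4 arrays of sets A and B, 0 of 48 genes were called (background 0.457%), while 40 were lower at an unadjusted p below 0.05 (11.9%) in limma. Between WT arrays with a set letter (5) and without (2), limma called 0 of 48 genes (0.457% of features), and 8 had an unadjusted p below 0.05 (13.2%). The median difference (set-labelled minus unlabelled) was -0.21, against -0.08 over all features. It was negative for 40 of 48 genes and for 3830 of 6129 features. Both ckb12 arrays carry a set letter, and against the 5 WT arrays with a letter alone the median strain difference was -0.55 with 0 genes called.

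The deleted genes themselves had ratios of 0.97 and 0.44 for CKB1 (YGL019W) and 0.82 and 0.71 for CKB2 (YOR039W) on the ckb12 arrays, above their WT ranges of -0.88 to -0.38 and -0.47 to 0.10. A ratio of treated over unstressed signal within a strain gives no level, so these values do not check the deletion. Among known regulators of ribosome biogenesis genes, TOD6 (YBL054W), which encodes a Myb-like repressor, itself had a WT mean of -3.23 (SD 0.21, n = 7). It had -4.14 and -4.17 in ckb12, a difference of -0.93 (SE 0.16, adjusted p = 0.0238, limma). Its paralogue DOT6 (YER088C) had a WT mean of -0.09, the repressor STB3 (YDR169C) 0.71, the activator SFP1 (YLR403W) 0.36 and the kinase gene SCH9 (YHR205W) -0.59, and none of these had a called strain difference.

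The 48 genes are scattered over the genome: in the RefSeq annotation of R64, no pair of them is adjacent, and none overlaps the gene listed before or after it there. Of their 92 neighbours with a value, 47 (51.1%) were called lower in WT, against 40.6% of all features. The median WT mean of the neighbours was -0.23, against -0.04 over all features. NSR1 lies between MTR3 (-1.23), an exosome subunit gene, and RTS3 (0.61). ENP1 lies between RRT2 (-0.26) and HIS7 (-0.76). LCP5 adjoins the 60S factor gene NSA2 (-2.66), and UTP13 adjoins both RSA3 (-2.28) and IFH1. Gene length, from 381 to 7482 bases, had a Spearman's rho of -0.15 with the WT mean across the 48 genes.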

How the data were processed

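The authors labelled cDNA of treated and unstressed cultures with different dyes, hybridised both to tiled NimbleGen arrays and deposited normalized log2 ratios, 1 per feature and array. The log2 scale and the direction, treated over unstressed, come from the methods and the labels, since the table names neither. How tiles were combined, and the genome build, are not given in the sources used here. No column was left unused.

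The deposited log2 ratios of the 6129 features with a value on all 9 arrays were fitted in R 4.3.3 with limma 3.58.1 (lmFit, eBayes) with no further normalization: the mean of 7 WT arrays against 0, and group means of 9 arrays for ckb12 and for ckb12 minus WT. Calls used a Benjamini-Hochberg adjusted p below 0.05 over all features, and 95% intervals came from the moderated SE. Fits were tested on simulated data. The 48 genes and all lists were chosen with earlier results of these data known. Modules and lists were written from general knowledge and are described by counts and medians only. Every gene was named once. Values of every array, or the WT range and median, were given for UTP22, RRP7 and NSR1, the 5 lowest and 5 highest WT means and, since fewer than 5 genes were called, the 5 largest strain differences, with NAN1 added as a called gene. Symbols and neighbours come from a RefSeq table of R64, in which 6023 feature IDs matched.

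The study's methods compare mutants with their paired WT and keep the dye orientation the same within a pair. The main strain fit also used WT arrays outside sets A and B, and a dye effect on the strain difference was not tested. Here pairing rests on the set letters, because equal replicate numbers of WT and ckb12 belong to different sets. Across features, the deviations of WT and ckb12 arrays of a set from the means of their strains had a correlation of -0.08, and the consensus correlation within sets was 0.18. Alternatives were quantile normalization, an equal median absolute deviation (MAD), centring on the array median, robust eBayes, features with missing values, open reading frames only, a minimum change of 1, a rule of 2 SD, the set letter as a fixed or random block, WT arrays with a set letter only, and leaving out each array.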

Additional observations from a re-analysis of the deposited data

Results flagged for a closer look

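In 7 of 62 groups of 7 WT values, the gap from the highest or lowest array to its nearest neighbour was above Dixon's critical value of 0.568 of the range. Chance alone gives about 1 in 20 groups if the groups are independent. The 62 groups share the same 7 arrays, so 1 array can set many apart, and the count is not a test. WT replicate 12 was the array set apart in 5 of the 7 groups: it was low for UTP9 (-2.57), RRP7 (-1.20), LCP5 (-2.38) and UTP11 (-3.44) and high for UTP20 (-2.29). WT replicate 10 was low for UTP21 (-2.81), and WT replicate 11 was high for MPP10 (-1.80).

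The salt response differed between strains by the limma test of the difference for UTP10 (-0.89), NAN1 (-0.67), PWP2 (-0.96) and ROK1 (-0.94), and among the other genes listed for TOD6 (-0.93). The same test gave 1.31 for CKB1 and 0.94 for CKB2. These genes are deleted in ckb12, so their values there are not read as a salt response of a transcript.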

How the results depend on the processing

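The WT response of each of the 48 genes kept its direction and its call under the 13 alternatives of scaling, fit, features and left-out arrays. With a minimum change of 1, UTP22 and RRP7 lost their call and 46 of 48 genes kept it. The median WT mean stayed between -2.54 and -2.45. The 4 strain calls were less stable. The count was 0 after quantile normalization (0.359% of all features called lower), at an equal MAD (0.457%) and after centring (0.506%). With features that lack values kept it was 0 as well (0.504%). A minimum difference of 1, and the 5 WT arrays with a set letter alone, also gave 0. With open reading frames only the count was 6 (1.01%). It was 25 by the rule that both ckb12 values lie more than 2 SD below the WT mean (5.53% of all features). When single WT arrays were left out it was 0 to 14 (0.245 to 1.79% of all features). With 1 ckb12 array left, that array was assumed to vary like WT, and no count is given. In the paired analysis, with the set letter as a replicate block, the count was 0 (0.457% of all features). With a random block it was 6 (1.11% of all features called lower). The median strain difference was -0.28 after quantile normalization and otherwise stayed between -0.66 and -0.50. The cause of these changes was not tested.

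Signs turned for 5 of the 48 genes. After quantile normalization RRP7 had 0.0077, SNU13 0.074, EMG1 0.077 and KRR1 0.21, and UTP23, at -0.54 before, had 0.033. At an equal MAD SNU13 had 0.010 and EMG1 0.058, after centring EMG1 had 0.018, and with the replicate block KRR1 had 0.0054. Leaving out single arrays gave -0.17 to 0.081 for RRP7, -0.24 to 0.077 for SNU13, -0.087 to 0.048 for EMG1 and -0.34 to 0.046 for KRR1. The planned search of promoters for motifs was not run, because no sequences were used here. The number of arrays, 2 for ckb12, limits the strain comparison, and signal over background is not known.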
